A study of Mus musculus with 3 samples.

Results

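Transcripts of Nr4a1 or Egr1 were found in 138 of 697 single naive CD4 T cells, which is 19.8% (95% exact interval 16.9 to 23.0). A cell was taken when its deposited count for Nr4a1 or for Egr1 was above 0, and it was set against cells of the same plate with 0 for both genes and a like number of transcripts. The cells came from spleen and lymph node of C57BL/6 mice aged 8 to 12 weeks, male and female pooled, and were profiled freshly sorted, without culture or stimulation. The naive gate of the sort kept, among its criteria, live TCRb+ CD4+ CD5+ singlets that were CD8-, CD25- and CD44-, over the whole range of surface CD5, into 384-well plates. There were 3 plates, and each holds both kinds of cell: 35 of 172 cells had either transcript in plate 1, 36 of 201 in plate 2 and 67 of 324 in plate 3. Each count is a number of unique molecular identifiers (UMIs), short random tags that mark single captured transcripts.

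Nr4a1 (Nur77) is an orphan nuclear receptor and Egr1 a zinc finger transcription factor. Both are immediate early genes, transcribed within minutes of a T cell receptor (TCR) signal from proteins that the cell already holds, and both transcripts are short-lived. In T cells Nr4a1 is widely used as a reporter of recent TCR signalling, including the weak tonic signals that naive cells receive from self peptides, and surface CD5 is a slower readout of the same signals. Immediate early genes, these 2 and Fos, Jun and Dusp1 among them, also answer to tissue dissociation and stress.

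Nr4a1 lies on mouse chromosome 15 at 101254269 to 101274795 on the plus strand of GRCm38, and Egr2, the zinc finger paralogue of Egr1 found in a few of these cells, on chromosome 10 at 67535475 to 67542188 on the plus strand. The windows below run from 250 bases before to 50 bases after a RefSeq gene start in GRCm38.p6 and are shown because Nr4a1 chose the cells and Egr2 was found only in cells so chosen. The Nr4a1 window is chr15:101266596-101266895 and the Egr2 window chr10:67537619-67537918, both on the plus strand and written 5′ to 3′. Capitals mark TGCGTCA, the CArG box bound by serum response factor, and TGACG, each searched on both strands. Every TGCGTCA match also contains a TGACG match on the opposite strand.
Nr4a1: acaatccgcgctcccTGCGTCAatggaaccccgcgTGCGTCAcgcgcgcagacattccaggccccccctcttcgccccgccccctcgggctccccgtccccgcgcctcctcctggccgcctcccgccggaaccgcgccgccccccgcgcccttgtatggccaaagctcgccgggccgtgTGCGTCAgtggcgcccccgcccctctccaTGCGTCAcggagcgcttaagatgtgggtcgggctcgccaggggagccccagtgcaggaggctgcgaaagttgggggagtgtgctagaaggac
Egr2: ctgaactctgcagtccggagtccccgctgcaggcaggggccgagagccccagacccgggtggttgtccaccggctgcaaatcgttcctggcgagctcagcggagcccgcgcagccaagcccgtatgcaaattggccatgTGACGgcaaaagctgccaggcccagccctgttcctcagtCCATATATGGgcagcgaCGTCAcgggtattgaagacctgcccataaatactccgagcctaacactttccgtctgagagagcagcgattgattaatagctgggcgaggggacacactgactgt
The Nr4a1 window held 4 TGCGTCA matches and 0 CArG boxes, and the Egr2 window held 0 TGCGTCA matches, 1 CArG box and 2 TGACG matches. Of 32851 windows of this length, 2.12% held TGCGTCA, 1.63% a CArG box and 20.8% TGACG. The TGCGTCA motif was picked after the Nr4a1 window had been read, and the Egr2 window is, of 5 in the table, the one with most matches, so neither count is evidence about these genes. A match describes the letters and shows no bound factor.

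Most of the cells were chosen by a single transcript. Of the 138 cells, 88 held 1 UMI of the 2 genes together and 50 held 2 or more, and the 559 cells just outside the rule held 0. Nr4a1 was found in 99 cells (14.2%) and Egr1 in 56 (8.03%), with 82 cells holding Nr4a1 alone, 39 Egr1 alone and 17 both. Among cells with the gene, 68 of 99 held exactly 1 Nr4a1 UMI and 34 of 56 exactly 1 Egr1 UMI. Over all cells of a plate, Nr4a1 stood at 97.9, 79.1 and 61.3 CPM (counts scaled to a common total) in plates 1, 2 and 3, and Egr1 at 53.7, 49.4 and 31.3 CPM. These values describe the choice of cells and carry no test.

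**Figure D1:**
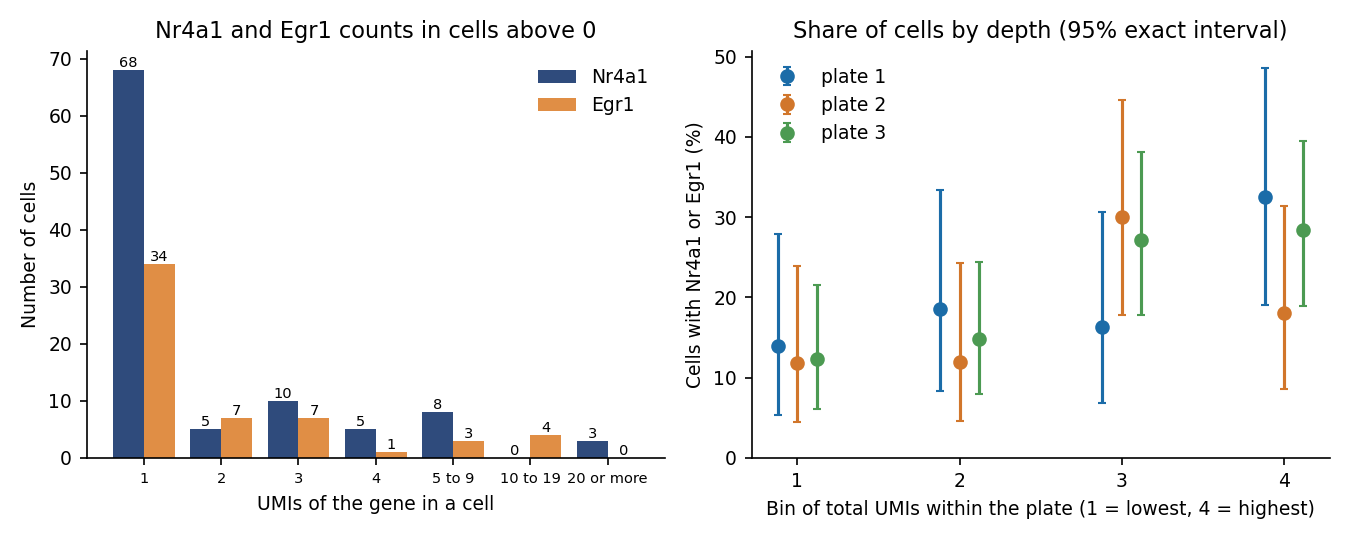
Number of cells by UMIs of Nr4a1 (blue bars) and of Egr1 (orange bars) among cells above 0 (left), and the percentage of cells with either gene in 4 equal bins of total UMIs within each plate, numbered from lowest to highest, with 95% exact intervals (right). Single UMIs make up 68 of the 99 Nr4a1 cells and 34 of the 56 Egr1 cells, and the share with either gene was lowest in bin 1 of each plate, at 11.8% to 14.0%.

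Cells in which more transcripts were captured were more often chosen. In plate 1 the share with either gene was 14.0% (5.30 to 27.9) in the lowest of 4 equal bins of total UMIs and 32.6% (19.1 to 48.5) in the highest. In plate 3 it was 12.3% (6.08 to 21.5) in the lowest bin and 28.4% (18.9 to 39.5) in the highest. In plate 2 bin 3, at 30.0%, lay above the highest, at 18%. Median totals without spike-ins and the 2 genes were 4533, 6448 and 4970 UMIs in cells with either transcript, against 3559, 5002 and 3517 in cells with 0 for both. Matching within 0.2 on the log2 scale gave 137 cells with either transcript and 272 matched cells, with medians of 4684, 6448 and 4970 UMIs against 4572, 6403 and 4934. A single cell of plate 1 had no match.

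At matched depth each of the genes was found more often where the other was found. Egr1 was found in 17 of 98 cells with Nr4a1, or 17.3% (10.4 to 26.3), against 18 of 290 matched cells without Nr4a1, or 6.21% (3.72 to 9.63). Nr4a1 was found in 17 of 56 cells with Egr1, or 30.4% (18.8 to 44.1), against 15 of 168 matched cells without Egr1, or 8.93% (5.08 to 14.3). These shares carry no test, since the genes chose the cells. The first pair of shares was 12.5%, 32.0% and 12.2% in plates 1, 2 and 3 with Nr4a1, against 4.35%, 6.67% and 6.85% without it. The second pair of shares was also higher with Egr1 in each plate. Both comparisons rest on the same 17 cells with both genes, so their common direction is no separate support. No like shares of other gene pairs are given, so whether the pattern is particular to Nr4a1 and Egr1 was not tested. Intervals here and below cover counting error only, and cells of a plate share their library.

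A few cells held many copies. The highest Nr4a1 values were 28.09 UMIs in a cell of plate 1 and 24.07 and 22.06 in cells of plate 2, and the highest Egr1 value was 13.02 in a cell of plate 1. The cell with 24.07 Nr4a1 UMIs also held 11.01 of Egr1, while the cell with 28.09 held 0 of Egr1 and the cell with 13.02 Egr1 UMIs held 0 of Nr4a1. A high count of either gene therefore came with and without the other. Among the 10 cells with most UMIs of the pair, 7 held Jun, 7 Junb, 7 Klf6, 6 Fos, 6 Ier2, 5 Cd69, 4 Dusp1 and 4 Egr2. Among all matched cells with 0 for both genes, Jun was found in 73.9%, Junb in 72.8%, Klf6 in 59.6% and Fos in 61.8%. Ier2 was found there in 33.8%, Cd69 in 33.1%, Dusp1 in 26.8% and Egr2 in 0 cells. In the 10 cells, Jun, Junb and Fos lay near these shares and Klf6, Ier2, Cd69, Dusp1 and Egr2 above them, which was not tested. The 10 cells, of 2547 to 8644 UMIs each, were not matched on depth for these shares. The CD5 class of the 10 cells was Low in 1, Middle in 7 and High in 2, where Low and High are the cells below 26773 and above 69676 units of CD5 fluorescence, the quartiles of all cells. The 2 High cells were of plate 2, whose listed CD5 values may not belong to their wells, as given below.

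The closest relatives of the 2 genes were nearly absent. Egr2, which limits T cell activation together with Egr3, was found in 5 cells, and all of them held Egr1. The 5 are 3.62% of cells with either transcript (1.19 to 8.25), against 0 of 559 cells with 0 for both, which allows a share of up to 0.537%. Of the 7 cells with 6 or more Egr1 UMIs, 4 held Egr2, with 1 to 3 UMIs each, and the 5 Egr2 cells were spread over the plates and all in the Middle CD5 class. Egr3 was found in 1 cell with either transcript, which also held Egr2, and Nr4a3 in 1 other, against 0 cells with 0 for both. Nr4a2, the remaining Nr4a receptor, was found in 0 of the 138 cells and in 3 of the 559. Egr2 was singled out after these values were seen. At matched depth Egr2 was found in 5 of 137 cells, or 3.65%, against 0 of 272 matched cells. Cd74, a B cell and antigen presentation gene, was found in 3.65% of cells with either transcript, against 3.68% of matched cells, and the part of stray transcripts in the Egr2 counts was not tested.

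Transcripts of T cell and naive-state genes were found in most cells of both kinds. Cd4 was found in 97.1% of cells with either transcript and 97.1% of matched cells, Cd3e in 83.9% and 86.8%, and Cd3g in 83.2% and 77.6%. Of the naive-state genes, Ccr7 was found in 68.6% and 74.3%, Lef1 in 89.1% and 92.3%, and Tcf7 in 72.3% and 69.9%. Trac, Trbc1 and Trbc2 were not matched to the table and were not used here. Summed over 4 regulatory T cell markers (Foxp3, Il2ra, Ikzf2, Ctla4), cells with either transcript stood at 28.5, 135 and 145 CPM in plates 1, 2 and 3, against 9.18, 72.3 and 77.6 CPM in matched cells. Foxp3 itself was found in 15 of 137 cells, against 21 of 272 matched cells, and in 0 cells of either kind in plate 1. Over the 2 CD8 markers the sums were 5.70 to 13.0 CPM against 6.57 to 15.3 CPM. Over the 5 B cell markers in the table they were 0 to 38.5 CPM against 8.75 to 142 CPM, with Cd79a at 0 in cells with either transcript. Over 3 NK markers they were 11.4 to 69.6 CPM against 26.9 to 55.1 CPM, and over 4 myeloid markers 204 to 359 CPM against 207 to 321 CPM. Memory or effector markers (5 in the table, with S100a6, Cxcr3 and Ccl5 at 0) summed to 95.7 to 115 CPM against 52.5 to 101 CPM. Among these, Cd44, whose protein the gate excluded, was found in 10.2% of cells with either transcript, against 8.82% of matched cells. Over 4 cycling markers the sums were 222 to 518 CPM against 279 to 385 CPM. The erythroid gene Alas2 was at 0 in cells with either transcript. The part of regulatory T cell markers in the results below was not tested beyond the values given without cells holding Foxp3.

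Median surface CD5 was higher in cells with either transcript in each plate, by a difference that 3 plates cannot call. Median CD5 fluorescence was 44077, 59470.5 and 48197 units in plates 1, 2 and 3, against 42154.5, 53867.5 and 39660 units in matched cells. Each plate lay higher in cells with the transcripts, while single cells of the 2 kinds overlapped over nearly their whole range. The difference of medians on the log2 scale was 0.06, 0.14 and 0.28, with a mean of 0.16 ± 0.11 (SD, n = 3 plates; exact two-sided sign-flip permutation test, p = 0.25, the smallest that 3 plates allow). With the mean of log2 CD5 in place of the median it was 0.04 ± 0.17 and positive in 2 of 3 plates (exact permutation p = 0.75). Without cells holding Foxp3 it was 0.10 ± 0.09, and without plate 3 it was 0.10.

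The CD5 values of plate 2 may not belong to the wells they are listed with. Across cells of a plate, the Spearman correlation of CD5 fluorescence with the Cd5 transcript share was 0.39 in plate 1 (172 cells) and 0.26 in plate 3 (324 cells), but 0.08 in plate 2 (201 cells). Set against the CD5 of the next well number, it was 0.32 in plate 2 (170 cells), and -0.02 and 0.01 in plates 1 and 3. These correlations are descriptions, and this displacement was known from earlier results of the same data. With the next well's CD5 in plate 2, where 29 cells with either transcript and 63 matched cells have one, the difference there was 0.34, and the mean over plates was 0.23 ± 0.14. The authors' CD5 classes of plate 2 rest on the listed values, which includes 3 of the 5 Egr2 cells.

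The size of the CD5 difference depended on how the cells were defined, and 5 definitions were tried. All of them use the listed CD5 of plate 2, which may not belong to its wells. The next well's CD5 was used only for cells with either transcript. For cells with Nr4a1 the 3 plates gave 0.50, 0.20 and 0.28 (mean 0.33 ± 0.16). For cells with Egr1 they gave -0.34, 0.31 and 0.55 (mean 0.17 ± 0.46, exact permutation p = 0.75), so plate 1 lay lower. With at least 2 UMIs of the pair they gave 0.09, 0.65 and 0.63 (mean 0.46 ± 0.32). For the 17 cells with both genes, 3, 8 and 6 per plate, they gave 0.54, 0.49 and 0.77 (mean 0.60 ± 0.15, exact permutation p = 0.25). The last is the largest of the 5, was added after its values had been seen, and shares its cells with the others, so the order of the definitions was not tested.

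**Figure D2:**
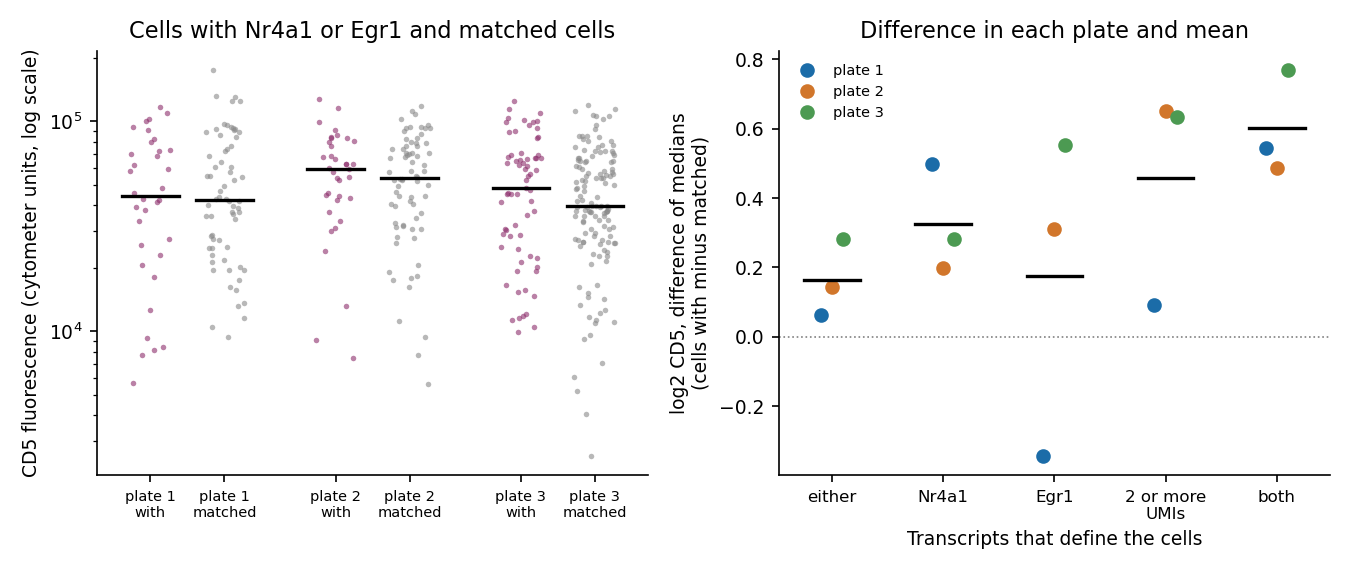
CD5 fluorescence of single cells on a log scale, with black bars at the medians (left; with, cells with Nr4a1 or Egr1; matched, cells with 0 for both), and the difference of median log2 CD5 in each plate for 5 definitions of the cells, with black bars at the means (right). Cells of the 2 kinds overlap in every plate, and only plate 1 with Egr1, at -0.34, falls below 0. Plate 2 is shown with its listed CD5 values, which may not belong to their wells.

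By the authors' CD5 classes, either transcript was found at like shares. It was found in 32 of 174 Low cells, or 18.4% (12.9 to 24.96), in 69 of 349 Middle cells, or 19.8% (15.7 to 24.3), and in 37 of 174 High cells, or 21.3% (15.4 to 28.1). The intervals overlap almost completely. These shares are not matched on depth, and the median of UMIs per cell was 4554 in Low, 4232 in Middle and 3818 in High cells. In plate 2 the share was 8.70% in the Low class and 20% in the High class, and in plates 1 and 3 it was 20.8% and 22.5% in the Low class and 22.4% and 21.4% in the High class.

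No gene passed the test between the 2 kinds of cell. With Nr4a1 and Egr1 left out, edgeR's quasi-likelihood test on counts summed per plate and kind called 0 of 5390 genes at a Benjamini-Hochberg adjusted p of 0.05 (a background of 0%), and a DESeq2 Wald test also called 0. At an unadjusted p under 0.05 edgeR gave 235 genes, 4.36% of those tested, and DESeq2 gave 43. Over the tested genes the sums held 166499 to 320210 UMIs in cells with either transcript and 310296 to 634427 in matched cells. Each log2 fold change below is for cells with either transcript minus matched cells, and every gene given with one had an adjusted p of 0.998 in edgeR, so none passed. Of the 99 genes taken by the naming rule or called under an alternative setting, 28 changed sign under at least 1 such setting.

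Cd5, the gene of the sorted protein, is named first. Its summed level was 363, 441 and 204 CPM in cells with either transcript, against 309, 223 and 193 CPM in matched cells. Each plate lay higher, and plate 2 set most of the difference, which was 0.16 on the log2 scale without it. The log2 fold change was 0.44 (SE 0.21), with 0.23, 0.96 and 0.08 in the plates, and it did not pass.

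Among immediate early genes, the list to which Nr4a1 and Egr1 belong, 0 of 19 tested members passed, 14 had a positive fold change (48.8% of all tested genes did) and the median was 0.24, against -0.01 over all tested genes. The plate medians were 0.12, 0.31 and 0.05, and the list's median was 0.10 without plate 2 and 0.11 in cells thinned to the same total. Dusp1, a phosphatase that switches off MAP kinases, stood at 161, 115 and 149 CPM in cells with either transcript, against 104, 91.2 and 77.3 CPM in matched cells, so that the 2 kinds did not overlap, as in the same direction for 3.91% of all tested genes. Its log2 fold change was 0.65 (SE 0.30). Ier2, a nuclear protein of the early response, stood at 133, 147 and 177 CPM, against 114, 115 and 105 CPM in matched cells, with a log2 fold change of 0.46 (SE 0.28). Of the other members of smallest p, Zfp36l1, which speeds decay of AU-rich mRNAs, had 0.26 (SE 0.15) and Dusp2, another MAP kinase phosphatase, 0.37 (SE 0.22), each with plate 1 lower. Plate 2 set much of both, since without it they were 0.05 and 0.10.

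The AP-1 genes Fos and Jun had fold changes near 0. Fos stood at 340, 294 and 423 CPM in cells with either transcript, against 313, 271 and 574 CPM in matched cells, with a log2 fold change of -0.10 (SE 0.19). Jun stood at 415, 294 and 816 CPM, against 356, 324 and 897 CPM in matched cells, with -0.03 (SE 0.17). Both kinds of cell were highest for these genes in plate 3, and plates differed more than the 2 kinds did. Junb had a log2 fold change of 0.24 (SE 0.16), Jund 0.17 (SE 0.14) and Fosb 0.31 (SE 0.34).

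The same genes can be read as shares of cells in which a UMI was found. Of 38 listed genes in the table, 23 were found in a larger share of cells with either transcript, 14 in a smaller share, 1 in neither kind, and 7 were higher in all 3 plates. The 38 include rarely found genes such as Egr2, and no like share over all genes is given. These counts therefore describe the list and show nothing particular to it. Klf6, a zinc finger transcription factor, was found in 106 of 137 cells, or 77.4% (69.4 to 84.1), against 162 of 272 matched cells, or 59.6% (53.5 to 65.4). By plate its share was 58.8%, 69.4% and 91.0%, against 48.5%, 45.8% and 72.4% in matched cells. Its summed level was 294, 523 and 783 CPM, against 350, 386 and 580 CPM, so plate 1 was higher by share and lower by level, and the log2 fold change of 0.25 (SE 0.18) did not pass and was -0.13 for cells with Egr1. Dusp1 was found in 36.5% (28.4 to 45.1) of cells with either transcript, against 26.8% (21.7 to 32.5), and Klf10 in 8.03% (4.08 to 13.9), against 1.84% (0.599 to 4.24). Fosb was found in 24.8% (17.8 to 32.9), against 32.4% (26.8 to 38.3).

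These shares stand against a background in which many genes differ. Of 2296 genes found in at least 20% of the cells compared, 14.1% had a higher share in all 3 plates, and the median difference was 0.77 percentage points. A difference of at least 10 points was found for 55 genes in the higher direction and 17 in the lower. Klf6, at 17.8 points, was singled out after these values were seen, and Pitpna, at 19.1 points, was the single gene above it. A median of 1416, 1732.5 and 1644 genes per cell was found in cells with either transcript, against 1375.5, 1641 and 1574 in matched cells of like total, which is higher in each plate (exact permutation p = 0.25, adjusted 0.75 over 6 measures). The part of this difference in the shares was not tested.

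**Figure D3:**
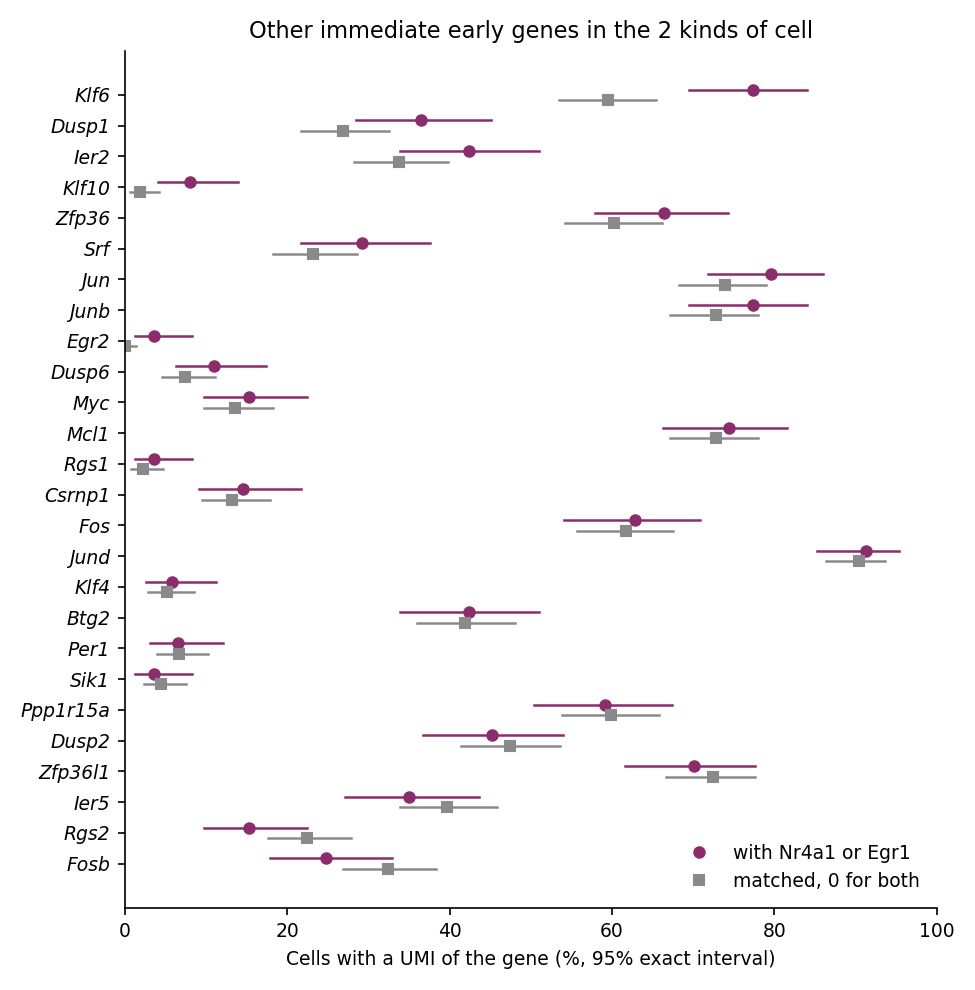
Percentage of cells with a UMI of other immediate early genes in cells with Nr4a1 or Egr1 (purple circles) and in matched cells with 0 for both (grey squares), with 95% exact intervals from counting error only. Klf6, singled out after the values were seen, lies at 77.4% and 59.6%, and its summed level did not pass. The intervals of Dusp1, Ier2, Fos and Jun overlap. Cells of a plate are not replicates, so overlap or its absence is no test.

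NF-kB genes, a list of subunits and feedback genes, had 0 of 19 members passing, 11 positive and a median of 0.23, with plate medians of 0.64, 0.22 and -0.11. Nfkbiz, an atypical nuclear protein of the IkB family, stood at 196, 142 and 125 CPM in cells with either transcript, against 60.5, 88.8 and 110 CPM in matched cells. Its log2 fold change was 0.78 (SE 0.31), or 0.41 without plate 1. Nfkbid, a second nuclear protein of that family, had 0.68 (SE 0.30) and Nfkbib, which holds NF-kB in the cytoplasm, 0.87 (SE 0.45), each positive in all 3 plates. Of all tested genes, 25.6% had the same sign in all 3. Tnfaip3, the deubiquitinase A20, stood at 547, 142 and 116 CPM, against 97.5, 130 and 158 CPM, so its log2 fold change of 0.71 (SE 0.33) came from plate 1, was -0.18 without it and was 0.09 in thinned cells.

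**Figure D4:**
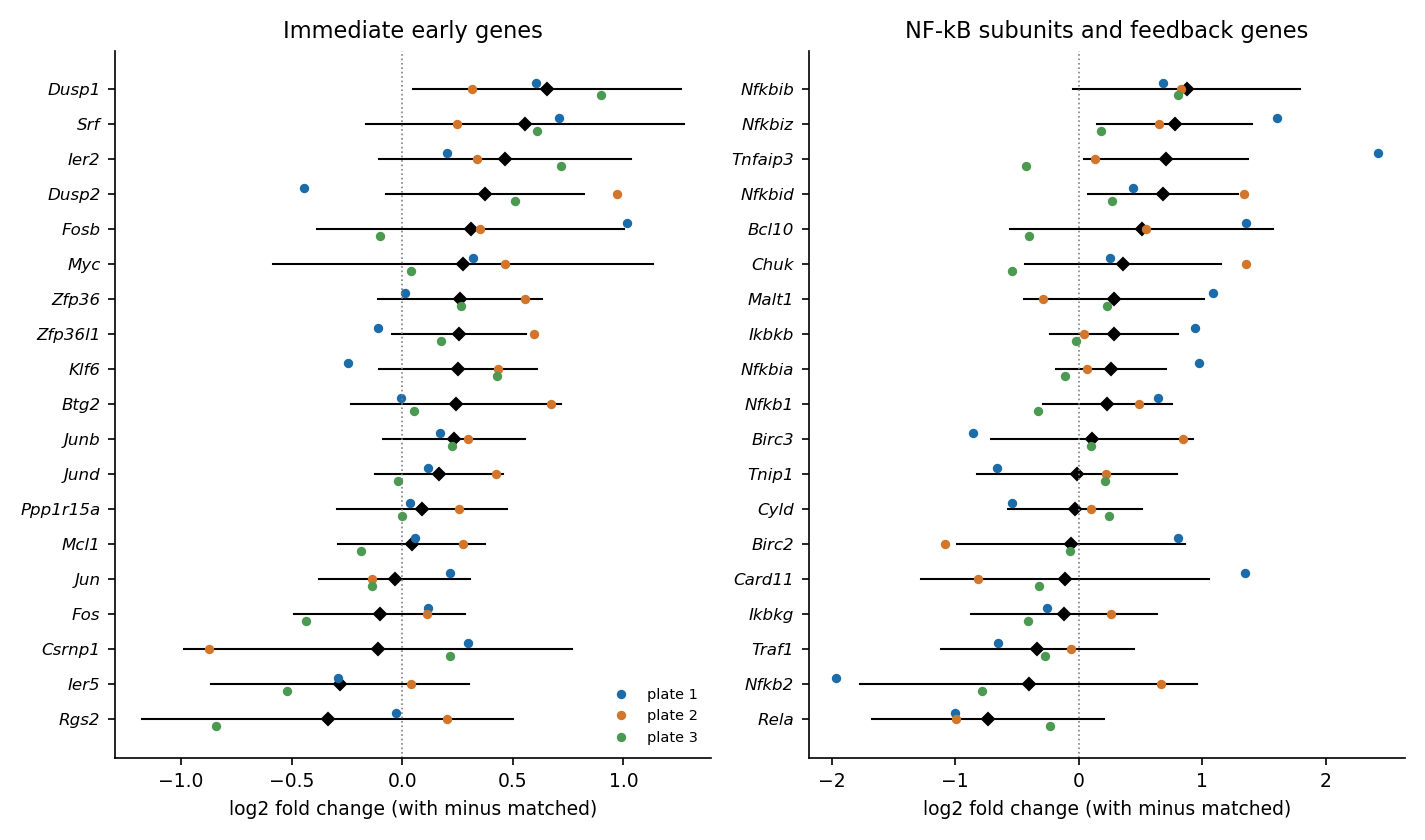
Log2 fold change of tested immediate early genes (left) and NF-kB genes (right) in cells with Nr4a1 or Egr1 minus matched cells. Black diamonds and lines are edgeR estimates with 95% intervals and coloured points the single plates. Dusp1 is highest on the left at 0.65 and Nfkbib on the right at 0.87, plates are often on both sides of 0, and no gene passed.

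Other genes induced through the TCR had 0 of 23 members passing, 16 positive and a median of 0.38, with plate medians of 0.35, 0.17 and 0.09. Nfatc1, the inducible NFAT factor, stood at 236, 156 and 82.2 CPM in cells with either transcript, against 60.5, 88.8 and 85.1 CPM in matched cells (log2 fold change 0.86, SE 0.33). In plate 3 the 2 values were close, and the fold change was 0.38 without plate 1 and 0.01 in cells thinned to the same total. Socs1, an inhibitor of cytokine signalling, had 0.997 (SE 0.49), was lower in plate 2 and stood at 0.43 without cells holding Foxp3, and the orphan receptor gene Gpr171 had 0.71 (SE 0.43).

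Negative regulators of TCR signalling had 0 of 32 members passing, 23 positive and a median of 0.16, with plate medians of 0.14, 0.15 and 0.06. Ptpn6, the phosphatase SHP-1, stood at 254, 276 and 299 CPM in cells with either transcript, against 148, 197 and 258 CPM in matched cells (log2 fold change 0.46, SE 0.22). Pag1, the adaptor that anchors the kinase Csk, had 0.62 (SE 0.36). Both were positive in all 3 plates.

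The machinery upstream was positive about as often as all tested genes. Of 27 tested genes of the TCR complex and its proximal kinases and adaptors, 13 were positive and 0 passed, with a median of -0.05. The smallest p belonged to Txk, a Tec kinase, with a log2 fold change of -0.39 (SE 0.30), and to Prkcq, protein kinase C theta, with -0.26 (SE 0.22). Of 28 calcium and MAP kinase genes, 14 were positive and 0 passed, with a median of 0.00. Braf, a kinase of the Erk cascade, had -1.25 (SE 0.53) and Itpr1, a calcium channel of the endoplasmic reticulum, 0.96 (SE 0.51).

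**Figure D5:**
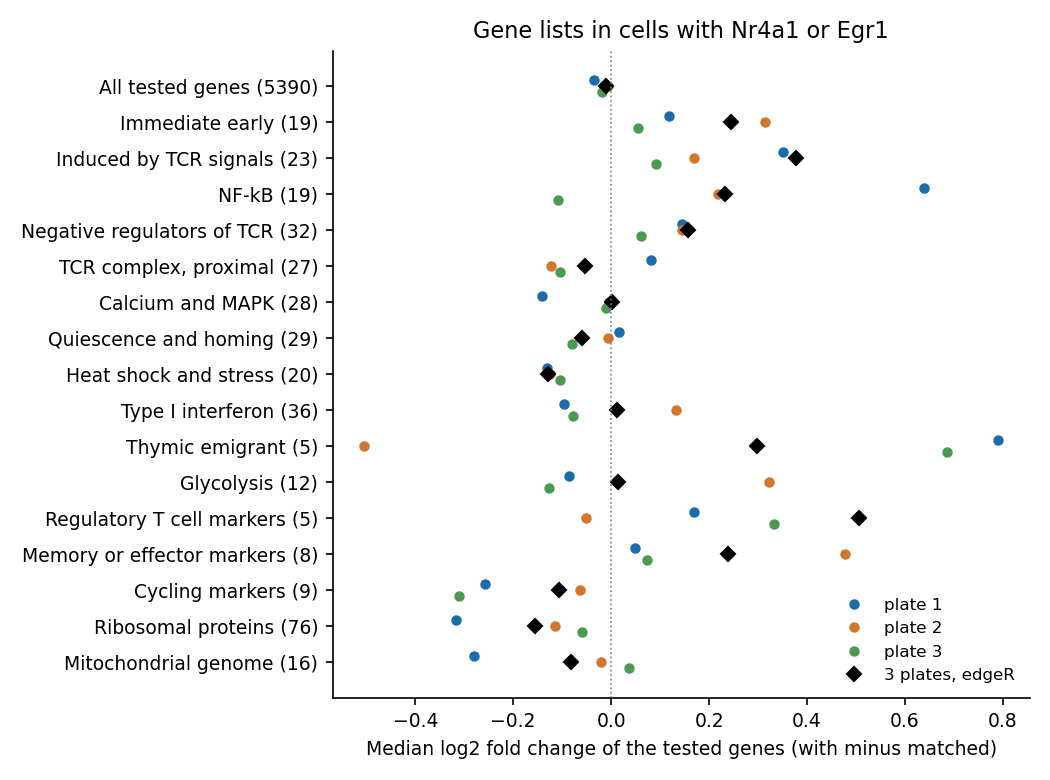
Median log2 fold change of the tested genes of each list, with the number tested in brackets, in cells with Nr4a1 or Egr1 minus matched cells (black diamonds, 3 plates together; coloured points, single plates). The immediate early, TCR-induced, NF-kB and negative regulator lists lie at 0.16 to 0.38, regulatory T cell markers at 0.51, recent thymic emigrant genes at 0.30, memory or effector markers at 0.24, ribosomal protein genes at -0.16 and all tested genes at -0.01.

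Genes of quiescence and homing had 13 of 29 members positive, 0 passing and a median of -0.06. S1pr1, the receptor through which naive T cells leave lymphoid tissue, was among the genes of smallest p in the lower direction. It stood at 495, 514 and 618 CPM in cells with either transcript, against 605, 833 and 891 CPM in matched cells, and was found in 76.6% against 82.0% of cells. Each plate was lower, with a log2 fold change of -0.51 (SE 0.15), and it did not pass. Runx1, a transcription factor of T cell homeostasis, had 0.61 (SE 0.34).

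Of the 10 genes of smallest p in the higher direction, 9 were positive in all 3 plates. Of all tested genes, 25.6% kept 1 sign in all 3, and a choice by small p in these plates favours plates that concur. The plate signs of these genes, and of those in the lower direction, are therefore no separate support. Rnf139, a ubiquitin ligase of the endoplasmic reticulum, stood at 97.9, 115 and 82.2 CPM in cells with either transcript, against 23.5, 45.6 and 32.5 CPM in matched cells (log2 fold change 1.51, SE 0.40). It was found in 22.6% of cells, against 9.56%. Bcl2, an inhibitor of apoptosis, stood at 513, 647 and 524 CPM, against 444, 504 and 266 CPM in matched cells (0.53, SE 0.18). Its fold change was -0.44 for cells with Egr1, 0.29 without plate 3 and 0.18 with counts capped per cell. Slc2a3, the glucose transporter Glut3, stood at 97.9, 78.1 and 54.8 CPM, against 23.5, 50.4 and 21.7 CPM in matched cells (1.27, SE 0.44). In these 3 genes, chosen for their small p, the values of the 2 kinds did not overlap, as in the higher direction for 3.91% of all tested genes. The others were Eif4ebp2 (which was lower in plate 2), Gnl1, Ubap1, Pofut2, Zfp407, Hmgn1 and Copz1, with log2 fold changes of 0.80 to 1.68. Zfp407, at 1.68, was found in like shares of cells, 7.30% against 7.35%. A single cell held 32.5% of its UMIs in cells with either transcript. In the lower direction, beside S1pr1, the genes of smallest p were Atxn7l1, Gsr, Tmem60, Emc7, Casp2, Cetn2, Zzz3, Ino80 and Mmgt1, all lower in each plate. Gsr, glutathione reductase, was found in 2 of 137 cells, against 23 of 272 matched cells.

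Most stress genes had negative fold changes. Of 20 tested heat shock and stress genes, 5 were positive and 0 passed, with a median of -0.13. Hsph1, a co-chaperone of Hsp70, stood at 5.76, 9.18 and 85.3 CPM in cells with either transcript, against 50.4, 60.0 and 110 CPM in matched cells (log2 fold change -1.29, SE 0.49). Hspa1b, an inducible Hsp70, was at 0, 0 and 286 CPM, against 57.2, 24.0 and 309 CPM (-0.86, SE 0.44, and -0.13 in thinned cells). Plate 3 was the highest for both genes in both kinds of cell. Hspa5, the chaperone BiP of the endoplasmic reticulum, stood at 398, 496 and 320 CPM, against 239, 324 and 303 CPM (0.46, SE 0.19, and 0.19 in thinned cells).

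Ribosomal protein genes were mostly lower in cells with either transcript. Of 76 tested, 5 were positive, 49 kept 1 sign in all 3 plates, 11 had an unadjusted p under 0.05, all lower (2.36% of all tested genes did so), and 0 passed after adjustment. Their median was -0.16, with plate medians of -0.32, -0.11 and -0.06. Rps4x stood at 2552, 3022 and 2553 CPM in cells with either transcript, against 3389, 3577 and 2897 CPM in matched cells (log2 fold change -0.28, SE 0.11). The median share of UMIs in these genes was 16.5%, 18.1% and 18.1% per cell, against 19.2%, 19.8% and 17.6% in matched cells, so plate 3 lay the other way (exact permutation p = 0.50, adjusted 0.75). These genes share 1 library per plate and are abundant, so their common sign is not 76 separate observations. Genes read from the mitochondrial genome had 3 of 16 positive and a median of -0.08, with mtNd4l at -0.29 (SE 0.14), and 0 passed.

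In the remaining lists no gene passed. Type I interferon genes had 18 of 36 positive and a median of 0.01, with Ly6e at -0.32 (SE 0.13) and Irf1 at -0.58 (SE 0.28). Glycolysis genes had 6 of 12 positive and a median of 0.01, with Ldha, lactate dehydrogenase A, at 0.21 (SE 0.17). Of 5 tested genes of recent thymic emigrants 4 were positive, with a median of 0.30 and plate medians of 0.79, -0.50 and 0.69, led by the chemokine receptor gene Ccr9 at 1.63 (SE 0.72). Of 5 regulatory T cell markers 3 were positive, with a median of 0.51, above that of any TCR-linked list, and plate medians of 0.17, -0.05 and 0.33, with Foxp3 at 0.99 (SE 0.61) and Tnfrsf18, the receptor GITR, at 0.74 (SE 0.56). Of 8 memory or effector markers 5 were positive, with a median of 0.24 and with Gata3 at 0.60 (SE 0.32). Of 9 cycling markers 3 were positive, with a median of -0.11 and with Mcm7, a helicase subunit, at -1.04 (SE 0.43). Of 2 tested myeloid markers 0 were positive, and of NK markers the single one tested, Klrd1, was at 0.06 (SE 0.56). CD8, B cell and erythroid markers had 0 genes above the filter on low counts.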

How the data were processed

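Per the labels' protocols, single cells were sorted with recorded fluorescence into 3 plates and profiled with CEL-Seq2 primers under the SORT-seq protocol, with UMIs of 6 bases. Reads were mapped with BWA to mm10, per the submitters' processing notes; for the version and the filter on cells, nothing is given in the sources used here. Gene values are expected counts deposited by the authors, UMI numbers corrected for collisions, of which 0.896% are not whole (tolerance 1e-09). CD5 was deposited as a fluorescence signal for each cell with no stated scaling. The table holds 14355 genes, 84 spike-ins (19.6% of counts, left out) and 697 cells with 726230, 1113632 and 1404157 UMIs in plates 1, 2 and 3. Of 372 well numbers used, 285 occurred in 2 or more plates and 40 in all 3, and cells with the same well number may share a barcode.

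The cells, gene lists and tests were chosen with earlier results of these data known. Cells were matched within plate, nearest total first, with 2 matched cells per cell, the largest of 1 to 3 that used at most 0.6 of the cells with 0 for both. Counts were summed per plate and kind (6 sums), rounded to whole numbers and tested two-sided with edgeR 4.0.16 in R 4.3.3 (TMM, filterByExpr with a minimum count of 10, plate as a block). CPM values of tested genes use TMM-scaled totals. Those of Nr4a1 and Egr1 and the sums over cell type markers use plain UMI totals without spike-ins. Fold changes of single plates add a prior count of 2. DESeq2 1.42.0 was an alternative. Other steps used Python 3.11.15, numpy 2.4.6, pandas 2.3.3, scipy 1.17.1 and matplotlib 3.10.9, and the fit was tested on simulated data. The plates are the replicates; the labels do not say that they come from separate mice, so p-values measure spread between these plates, which may be technical. Both sums of a plate share its library: their deviations correlated at 0.230, 0.452 and 0.456 over 960 genes. The fit had 2 residual and 34.2 prior degrees of freedom, so a small p need not mean that plates concur. Exact intervals (Clopper-Pearson) are at 95%, and a count of 0 was taken to allow 3. No clusters were made and no doublet caller was run on sorted single cells. The naming rule took Cd5, then, since no gene passed, the 10 of smallest p per direction, up to 4 per list and every immediate early gene. 1 marker among the naive T cell genes is not reported here.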

Additional observations from a re-analysis of the deposited data

How the results depend on the processing

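The count of 0 called genes held under every alternative except the comparison without matching, which called 2 (Grk4 and Kcnq1ot1, both lower), and the fit without plate 1, which called 2 (the ribosomal RNA precursor Rn45s and Mir5109, both lower); leaving out plates in turn gave 0 to 2. Plate 2 stood at 54832 CPM for Rn45s in cells with either transcript, against 68733 CPM in matched cells, and the cause of these calls was not tested. Without the plate as a replicate block, 0 genes were called by edgeR, and 136 had an unadjusted p under 0.05. The median of the immediate early list was 0.11 in cells thinned to 2118 UMIs, and 0.10 to 0.26 when plates were left out. The mean CD5 difference kept its sign throughout and was 0.10 to 0.21 when plates were left out. Capping each gene's count per cell at the 95% quantile of its values above 0, chosen after seeing the data, called 0 of 5242 genes. Leaving out cells with over 10% of UMIs in Kcnq1ot1 changed nothing, since no cell compared was removed.

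Of 99 genes taken by the naming rule or called under an alternative, 71 kept their sign in all alternatives and 28 did not, with 1453 of 1511 values of the same sign; the cause was not tested. Log2 fold changes of the other sign were, with 1 matched cell per cell Klrd1 at -0.30 and Mcl1 at -0.047; by DESeq2 Klrd1 at -0.10; without matching Cst3 at 0.089, Pgam1 at 0.032 and Tox at 0.056; in thinned cells Csrnp1 at 0.14, Cst3 at 0.088, Fosb at -0.60, Gata3 at -0.014, Jun at 0.012, Mcl1 at -0.12, Myc at -0.63, Prkcq at 0.11 and Runx1 at -0.051. Others were, with a mean of at least 50 counts Ctss at 0.0053 and Jun at 0.0078; with capped counts Fos at 0.025 and Jun at 0.0046; for cells with Nr4a1 Btg2 at -0.25, Csrnp1 at 0.10, Jun at 0.046, Klrd1 at -0.84, Pgam1 at 0.13 and Tox at 0.070. The rest were, for cells with Egr1 Bcl2 at -0.44, Ctss at 0.26, Grk4 at 0.049, Icos at -0.25, Junb at -0.0055, Kcnq1ot1 at 0.016, Klf6 at -0.13, Mcl1 at -0.051 and Runx1 at -0.33; for cells with at least 2 UMIs Btg2 at -0.46, Ctss at 0.042, Ier5 at 0.29, Junb at -0.13 and Tox at 0.23; without cells holding Foxp3 Cst3 at 0.082, Klrd1 at -0.032 and Ppp1r15a at -0.011. When plates were left out in turn, the ranges that crossed 0 were Tnfaip3 -0.18 to 1.34, Txk -0.79 to 0.026, Tox -0.43 to 0.21, Crip1 -0.47 to 0.045, Klrd1 -0.57 to 0.76, Cst3 -0.26 to 0.015, Ctss -0.11 to 0.049, mtNd2 -0.17 to 0.012, Fos -0.20 to 0.12, Jun -0.14 to 0.039, Csrnp1 -0.33 to 0.28, Mcl1 -0.069 to 0.17, Rgs2 -0.53 to 0.089 and Kcnq1ot1 -0.35 to 0.079. Depth limits what a single cell shows: with a median of 4244 UMIs per cell, a cell listed at 0 for Nr4a1 and Egr1 may hold either transcript.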
